A study of Glycine max with 4 samples.

Results

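Soybean (Glycine max, cultivar Williams 82) embryos were profiled by ATAC-seq, in which the Tn5 transposase cuts and tags DNA that is not wrapped in nucleosomes. Embryos were taken by hand at early maturation from seeds of 6 to 7 mm, and 50000 nuclei, purified on a gradient, went into each reaction. There were 2 biological replicates, both sequenced as a single-end and as a paired-end library, and the authors analysed the paired-end data. All samples share this 1 genotype, tissue and stage, and the labels name no treatment, so the series holds no contrast between groups. The deposited data are 1 list of 11436 peaks with their positions, without height, score, read count or replicate. Depth and replicate error are therefore unknown, and the labelled tissue could not be checked against marker genes.

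Described here are close pairs of peaks, meaning 2 accessible regions that lie within 5 kb of each other and have no further peak within 5 kb of either. The peaks of each of the 20 chromosomes were put in order and chained wherever the gap from the end of a peak to the start of the next was at most 5000 bp, and the chains of exactly 2 peaks were kept. This gave 1058 pairs with 2116 peaks, which is 19.7% of the 10719 chromosomal peaks (95% exact binomial interval 19.0 to 20.5) and 18.5% of the whole list. A further 7516 peaks (70.1%) stood alone, and 1087 (10.1%) lay in 289 chains of 3 or more, up to 27 peaks long. Members were thus chosen by the gaps between peaks, so gap lengths and the number of pairs are descriptions. With 1 peak list and no replicate there is no test of any difference below. Intervals cover counting error only, treat peaks as independent although partners share a region, and may be too narrow.

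In plants, accessible chromatin is found mainly just upstream of transcribed genes, where promoters bind transcription factors, and also at the ends of genes and at distal enhancers. A promoter together with a nearby enhancer, divergent promoters of neighbouring genes, and the start and end of a short gene are all arrangements in which accessible regions lie close together. At early maturation the soybean embryo is filling its cotyledons with storage proteins and oil. Positions are given as deposited and counted from 1. The sources used here do not name the genome build, so no gene, exon or sequence was assigned to a pair, and which of these arrangements a pair belongs to was not analysed here.

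The gap between partners had a median of 1931 bp with quartiles of 948 and 3373 bp, and the whole pair, from the first base of the left partner to the last base of the right, spanned a median of 3002.5 bp. Peaks filled a median of 34.2% of that span. Gaps under 1 kb were found in 277 pairs (26.2%) and gaps of 4 kb or more in 152 (14.4%). No pair was closer than 304 bp, which was also the smallest gap between any neighbouring chromosomal peaks. Counted per 100 bp, pair gaps were most frequent just above this floor, with 51 pairs from 300 to 400 bp and 51 from 400 to 500 bp. The next bins of 100 bp, up to 1000 bp, held 38, 42, 36, 32 and 27 pairs. Counted per 500 bp, the last 2 bins before the limit held 76 pairs each.

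Taken over all neighbouring chromosomal peaks, short gaps were the frequent ones. There were 575 gaps under 1 kb, 467 from 1 to 2 kb, 308 from 2 to 3 kb, 280 from 3 to 4 kb and 226 from 4 to 5 kb. Past the limit the number per kb was 172 between 5 and 10 kb, 124 between 10 and 15 kb and 109 between 15 and 20 kb. The 5 kb limit thus lies on a slope and not at a break in the spacing. Of the 1856 gaps of at most 5 kb, 57.0% belonged to pairs and the rest to longer chains, where the median gap was 1398 bp.

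**Figure D1:**
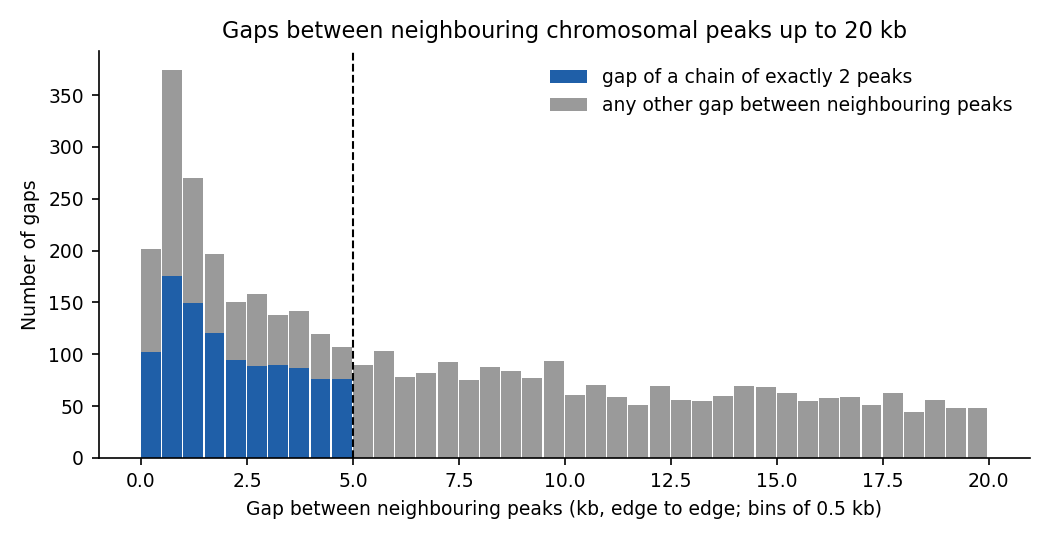
Number of gaps between neighbouring chromosomal peaks (vertical axis) by gap length in kb (horizontal axis, bins of 0.5 kb up to 20 kb), with the gaps of pairs in blue and all other gaps in grey. The dashed line marks the limit of 5 kb; pair gaps number 175 in the bin from 0.5 to 1 kb and 76 in the last bin before the limit, and the first bin, with 102, can hold only gaps of 304 bp or more.

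The members nearest to the limit show what it separates. The longest gaps inside it were 4992 bp on chromosome 3, between peaks of 573 and 306 bp, 4990 bp on chromosome 16, between peaks of 383 and 1712 bp, and 4987 bp on chromosome 7, between peaks of 398 and 700 bp. Just outside it, a gap of 5004 bp on chromosome 15 left peaks of 548 and 640 bp as singles. Gaps of 5002 bp on chromosome 6 and 5006 bp on chromosome 13 each kept a single peak apart from an existing pair.

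The shortest gaps were on chromosomes 5, 3, 8 and 11. The closest pair lay on chromosome 5 with peaks from 3672647 to 3673002 and from 3673307 to 3673871, which left 304 bp between them. Gaps of 305 bp were found on chromosome 3, between 38824834 and 38825859, and again on chromosome 5, between 39487534 and 39488641, and in each of these pairs the right partner was 306 bp wide. The next were 308 bp on chromosome 8, between peaks of 1022 and 816 bp that ran from 2703246 to 2705391, and 311 bp on chromosome 11, between peaks of 306 and 158 bp that ran from 33893371 to 33894145. These gaps are about as long as the most frequent peak width, which was 306 bp.

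Width was not part of the rule, and pair members were slightly wider than single peaks. Their median was 464 bp (95% binomial interval of the median 448 to 471) against 439 bp (431 to 446) for single peaks, a difference of 25 bp. The median was the higher for pair members on 13 of 20 chromosomes and the lower on 7. Across chromosomes the difference averaged 18.35 ± 34.6 bp (SD, n = 20 chromosomes, which are parts of 1 list and not replicates). This mean was smaller than the SD, which describes the scatter of single chromosomes and not the error of the mean. Peaks in chains of 3 or more had a median of 504 bp (487 to 525). In all 3 classes the lower quartile was close to 306 bp, with values of 306, 306 and 319 bp. With peaks narrower than 306 bp removed before chaining, the medians were 484 bp for pair members and 474 bp for single peaks, a difference of 10 bp.

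Pair members had a lower share of narrow peaks and a higher share of wide ones than single peaks. Their shares at the most frequent width were similar. Among peaks under 1 kb, which still include those narrower than 306 bp, the medians were 444.5 bp for pair members and 427 bp for single peaks. Between 550 and 575 bp lay 4.96% of pair members and 4.35% of single peaks. Between 600 and 625 bp the order was reversed, with 2.03% and 2.99%. Exactly 306 bp was the width of 357 pair members (16.9%, interval 15.3 to 18.5) and of 1238 single peaks (16.5%, interval 15.6 to 17.3). Narrower peaks made up 9.97% of pair members (211 peaks, interval 8.73 to 11.3) and 13.0% of single peaks (977 peaks, interval 12.2 to 13.8). The lower share in pairs was seen on 17 of 20 chromosomes, with a mean difference of -2.87 ± 3.64 percentage points (SD, n = 20 chromosomes). Peaks of at least 1 kb made up 5.58% of pair members (118 peaks, interval 4.64 to 6.64) and 3.49% of single peaks (262 peaks, interval 3.08 to 3.93), with the higher share in pairs on 14 of 20 chromosomes. The mean difference was 2.13 ± 2.91 percentage points (SD, n = 20 chromosomes). Both this and the mean difference for narrower peaks were smaller in size than their SD. In chains of 3 or more, 11.5% of peaks were narrower than 306 bp (interval 9.66 to 13.5) and 15.4% were at least 1 kb (13.3 to 17.6). Over all chromosomal peaks the shares were 12.2% (11.6 to 12.9) and 5.10% (4.69 to 5.54), and the latter interval overlaps that of pair members. Among peaks wider than 308 bp the medians were 528 bp for pair members (517 to 544) and 519 bp for single peaks (512 to 528), whose intervals overlap.

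**Figure D2:**
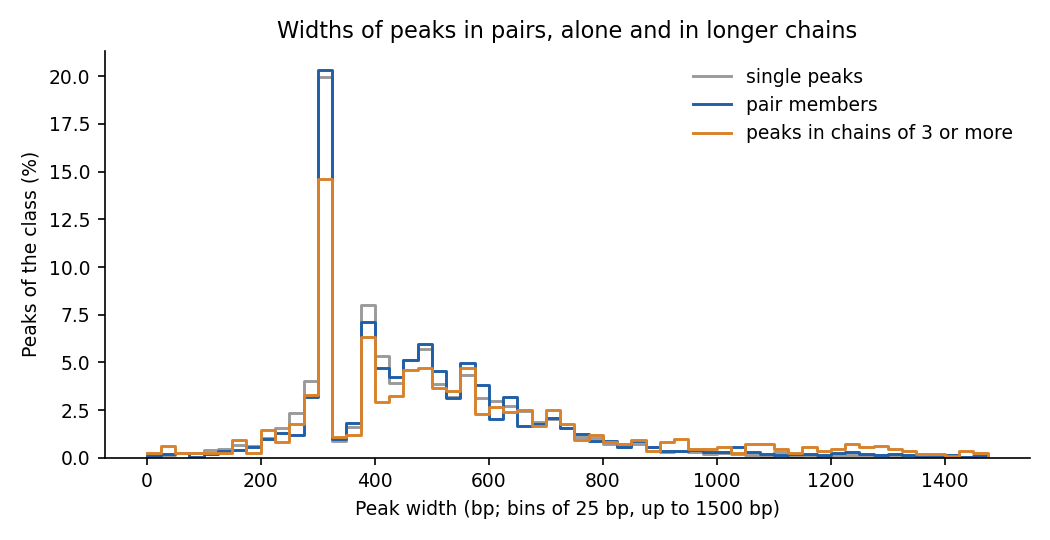
Percentage of the peaks of each class (vertical axis) by peak width in bp (horizontal axis, bins of 25 bp up to 1500 bp), for single peaks in grey, pair members in blue and peaks in chains of 3 or more in orange. The bin from 300 to 325 bp holds 20.3% of pair members and 19.9% of single peaks, and pair members lie below single peaks in the bin from 275 to 300 bp, with 3.21% against 4.03%.

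Ranked over all pairs, the width of a peak said little about the width of its partner. Peaks of at least 1 kb were an exception, given in the next paragraph. Spearman's rho between the left and right partner was 0.03 over 1058 pairs, a description over pairs that share 1 peak list. It was 0.05 over the 548 pairs with both partners wider than 308 bp and 0.00 over the 952 pairs with both under 1 kb. The wider partner had a median of 565 bp and the narrower a median of 337 bp. Their ratio had a median of 1.51, reached 2 or more in 277 pairs (26.2%) and was at most 1.1 in 169 (16.0%). The left partner was the wider in 520 pairs, the right in 495, and both were equal in 43.

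The number of pairs with the same kind of peak on both sides was set beside the product of the left and right partners' own shares. Both partners were exactly 306 bp in 40 pairs, against 30.1 from the product. The interval of these 40, 2.71% to 5.11% of all pairs, includes the product of 2.84% close to its lower end. Both were narrower than 306 bp in 10 pairs, against 10.5 from the product. Both were at least 1 kb in 12 pairs, against 3.27 from the product, and 94 pairs had 1 such partner. The interval of the 12 pairs, 0.587% to 1.97% of all pairs, lay above the product of 0.309%. Where only 1 partner was at least 1 kb, the other had a median width of 448 bp (interval 391 to 496), beside 444 bp (433 to 460) for the peaks of pairs with no such member. Both medians cover only peaks under 1 kb and leave out the 12 pairs.

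**Figure D3:**
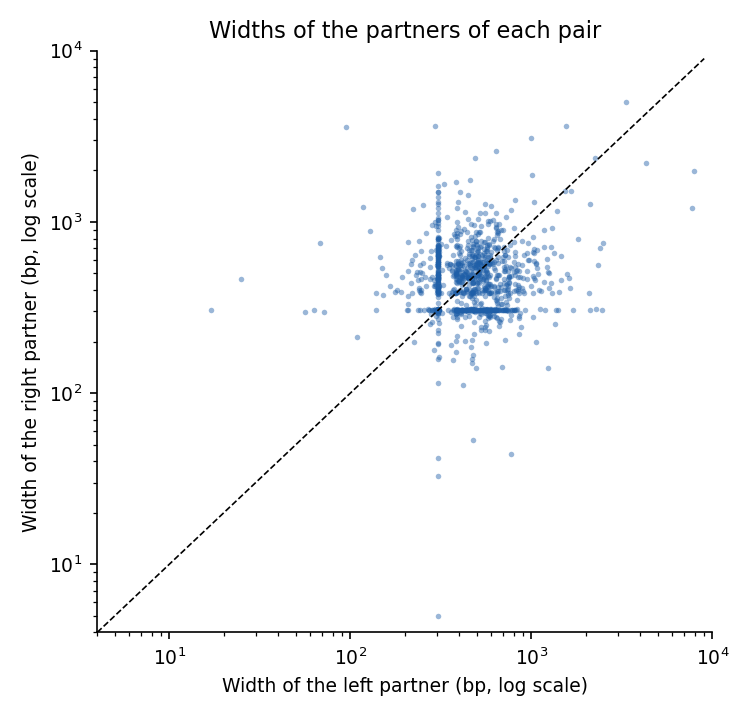
Width of the right partner against that of the left partner in bp, both on log axes, with 1 point per pair (1058 pairs) and a dashed line at equal widths. Points gather along a vertical and a horizontal line at 306 bp, and elsewhere form a cloud with little slope. Spearman's rho was 0.03 over all 1058 pairs and 0.05 over the 548 pairs with both partners wider than 308 bp.

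Gap length and width were also nearly unrelated, with a Spearman's rho of -0.04 between the gap and the summed width over 1058 pairs. The median member width was 468.5 bp in pairs with gaps under 1 kb and again from 1 to 2 kb, 446 bp from 2 to 3 kb, 472.5 bp from 3 to 4 kb and 440.5 bp from 4 to 5 kb. Members narrower than 306 bp ranged from 8.74% to 10.9% over these classes, with no order. The 106 pairs with a peak of at least 1 kb had a median gap of 1454 bp (interval 1137 to 2071), and the other 952 had 1960.5 bp (1860 to 2128), with overlapping intervals.

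The pairs with the most accessible sequence lay on chromosomes 13, 1, 10 and 18. On chromosome 13 a peak of 7917 bp, from 8430427 to 8438343, was followed after 472 bp by one of 1983 bp that ended at 8440798. That pair was also isolated, with 327 kb to the nearest other peak. On chromosome 1 a pair that ran from 53482253 to 53491468 had widths of 7683 and 1212 bp with 321 bp between them. On chromosome 10 peaks of 3344 and 5019 bp lay 3393 bp apart between 17214724 and 17226479, the longest span of any pair at 11756 bp. Chromosome 18 had 2 such pairs, with 4304 and 2208 bp between 39480737 and 39487952 and with 1560 and 3614 bp between 33799620 and 33809334.

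The most unequal pairs each held a very narrow peak. On chromosome 7 a peak of 306 bp, from 2522783 to 2523088, had a partner of 5 bp at 2523555 to 2523559, a ratio of 61.2. Peaks of 95 and 3599 bp formed a pair on chromosome 15 between 45168272 and 45173512. The next ratios were 18.5 on chromosome 6, from 25 and 462 bp, 18 on chromosome 10, from 17 and 306 bp, and 17.5 on chromosome 15, from 771 and 44 bp. Peaks under 100 bp were rare in both classes, with 12 of 2116 pair members (0.567%, interval 0.293 to 0.989) and 67 of 7516 single peaks (0.891%, interval 0.691 to 1.13). How reads supported these very narrow peaks is unknown.

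Pairs followed the overall density of peaks along the chromosomes. The inner part, from 25% to 75% of the span up to the last peak, held 345 pairs or 0.729 per Mb, and the outer parts, of the same total length, held 713 or 1.51 per Mb. The share of peaks that belonged to pairs was nevertheless alike in both, at 19.8% of 3493 inner peaks (interval 18.4 to 21.1) and 19.7% of 7226 outer peaks (18.8 to 20.7). By contrast, chains of 3 or more took 14.1% of inner peaks (13.0 to 15.3) and 8.21% of outer peaks (7.58 to 8.86). The inner part held 32.6% of pairs (29.8 to 35.5) and 30.7% of single peaks (29.7 to 31.8), and the share of pairs was the higher on 11 of 20 chromosomes.

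**Figure D4:**
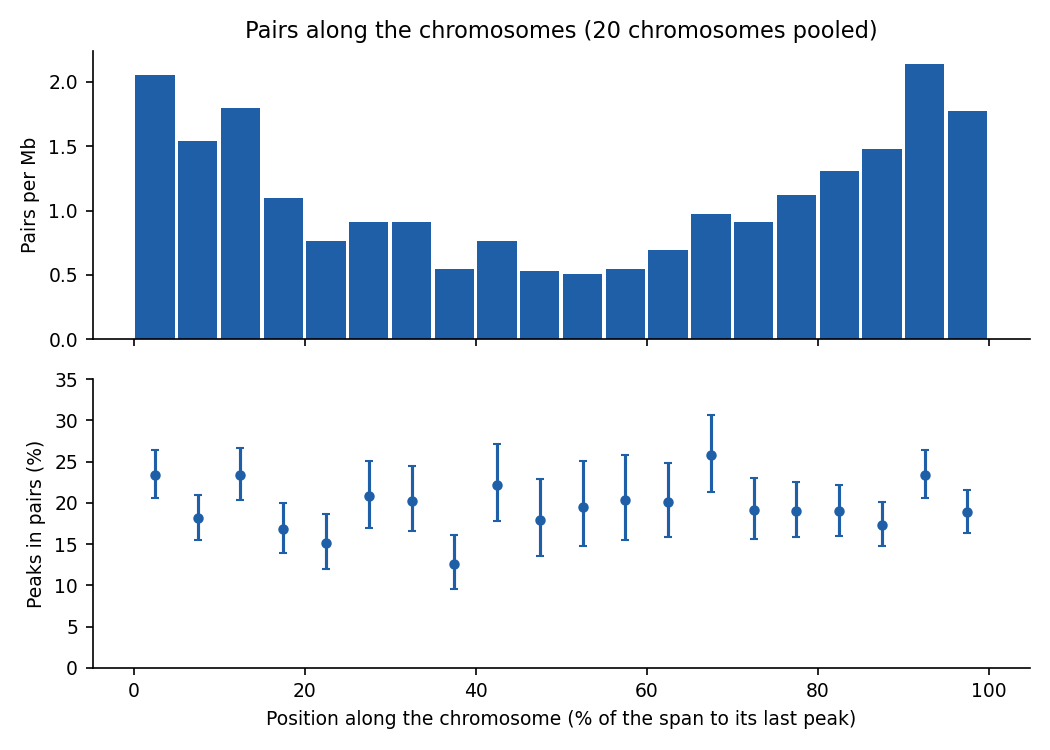
Pairs per Mb (upper panel) and percentage of peaks that belong to pairs with 95% exact binomial intervals (lower panel) in 20 equal bins along the span of the chromosomes, all chromosomes pooled. Pair density runs from 2.05 per Mb in the first bin to 0.507 in the bin from 50% to 55% and 1.77 in the last, while the share of peaks in pairs stays between 12.5% and 25.8% without following that course.

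A formula for even placement puts these shares in proportion. If peaks were spread evenly within windows of 1 Mb, with exponential gaps at the density of each window, 12.4% of peaks would fall in pairs, 85.5% would stand alone and 2.01% would be in longer chains. The observed shares were 1.59, 0.820 and 5.05 times these values. In the outer parts the formula gave 14.0% and the observed share was 1.41 times as high, and in the inner part it gave 9.26% and the ratio was 2.13. An even spread over whole chromosomes gave 9.93% in pairs. These are calculated references with no test, and they allow gaps below 304 bp, which the list does not hold.

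Short gaps and wide members were more frequent among inner than among outer pairs. The median gap was 1716 bp in the inner part (interval 1517 to 1949) and 2069 bp in the outer parts (1897 to 2245), with intervals that overlap. Of the pairs with a gap under 1 kb, 39.7% lay in the inner part, beside 25.4% to 31.7% in the 4 classes of longer gaps. Members of at least 1 kb made up 8.12% of inner pair members (interval 6.19 to 10.4) and 4.35% of outer ones (3.35 to 5.54). Among single peaks the same shares were 3.94% (3.18 to 4.82) and 3.28% (2.82 to 3.80), and in chains of 3 or more they were 20.2% (16.8 to 24.1) and 11.3% (8.86 to 14.1). Of the 106 pairs with such a peak, 48.1% lay in the inner part (38.3 to 58.0), against 30.9% of the other pairs (28.0 to 33.9). Of the 106 pairs, 3 (2.83%) lay in the 14 windows of 1 Mb that hold a chain of 7 or more peaks, where 22 of all 1058 pairs lay (2.08%). Members of exactly 306 bp were less frequent in the inner part, at 12.9% (10.5 to 15.6) against 18.8% (16.8 to 20.9), and single peaks had 13.9% and 17.6%.

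The number of pairs per chromosome averaged 52.9 ± 10.1 (SD, n = 20 chromosomes), and chromosome 14 had the most, 73, and chromosome 12 the fewest, 36. Per Mb this was 1.12 ± 0.200, with the highest value, 1.49, on chromosome 14 and the lowest, 0.843, on chromosome 4. The share of peaks in pairs was 25.8% on chromosome 14, 23.6% on chromosome 7 and 23.2% on chromosome 2. It was 15.0% on chromosome 4, 14.7% on chromosome 12 and 14.4% on chromosome 13. Counted over chains, 16.3% of the 447 chains of chromosome 14 were pairs (interval 13.0 to 20.1), and the intervals of chromosomes 4 (8.58%, 6.30 to 11.3), 12 (8.76%, 6.21 to 11.9) and 13 (8.76%, 6.36 to 11.7) lay below it. These chromosomes were singled out after their values were seen.

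On 20 of 20 chromosomes the share of peaks in pairs was above the value for even placement within windows of 1 Mb, by a factor that averaged 1.60 ± 0.270 (SD, n = 20 chromosomes). The factor was 1.12 on chromosome 13, 1.14 on chromosome 12 and 1.15 on chromosome 4. It was 1.97 on chromosome 16, 1.95 on chromosome 14 and 1.94 on chromosome 9. Chromosome 16 had the fewest peaks, 365, and its 40 pairs held 21.9% of them. On chromosome 4 only 7 of 44 pairs lay in the inner part, and on chromosome 13 the first 25% of the span held 4 pairs and the last 25% held 18.

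**Figure D5:**
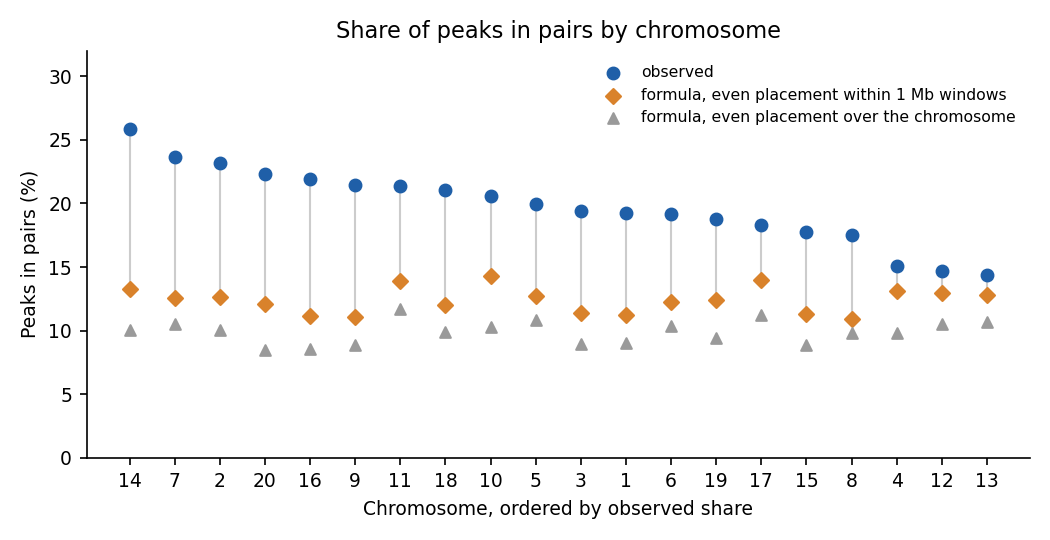
Percentage of the peaks of each chromosome that belong to pairs (vertical axis, blue points), with the values calculated for even placement within windows of 1 Mb (orange diamonds) and over the whole chromosome (grey triangles), the chromosomes ordered by observed share. Observed shares run from 25.8% on chromosome 14 to 14.4% on chromosome 13 and lie above both calculated values on all 20.

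Apart from their partner, pairs had slightly more peaks close by than single peaks had. The nearest peak outside the pair lay a median of 25.95 kb away (quartiles 11.5 and 55.2 kb), and for single peaks the nearest peak was 27.1 kb away (quartiles 13.2 and 59.5 kb). By the rule these distances exceed 5 kb for both. Another peak lay within 10 kb of 21.1% of pairs (interval 18.7 to 23.7) and of 17.5% of single peaks (16.7 to 18.4). These values are descriptions, since the rule sorted peaks by the distances between neighbours. Within 50 kb of their outer edges, pairs had a mean of 1.71 other peaks and single peaks 1.53, and the median was 1 for both. More than 100 kb separated 11.5% of pairs (9.67 to 13.6) and 12.7% of single peaks (11.9 to 13.4) from any other peak. Within 500 kb the means were 15.5 other peaks for pairs and 14.9 for single peaks, and the median was 15 for both.

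The most isolated pairs lay in the middle of chromosomes. A pair on chromosome 16, with peaks of 640 and 1132 bp between 13048709 and 13051279, was 802 kb from any other peak. It was followed by pairs on chromosome 14 at 23729318 to 23730867, with 624 kb, on chromosome 20 at 26329352 to 26334130, with 581 kb, on chromosome 2 at 18684307 to 18686915, with 551 kb, and again on chromosome 16 at 21955778 to 21958773, with 456 kb. All 5 lay between 34.5% and 58.1% of the span of their chromosome.

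Pairs stood next to other pairs about as often as their share of all chains gives, which was 11.9% of 8863 chains. Of 8843 couples of neighbouring chains on the same chromosome, 126 were both pairs. The square of the 11.9% gives 126. The longest run was of 5 pairs in a row, on chromosome 9 from 33213261 to 33505624. Of 955 windows of 1 Mb, 573 held at least 1 pair (60.0%), 291 held exactly 1 and 23 held 5 or more. The fullest window was on chromosome 6 between 3 and 4 Mb, with 7 pairs among 31 peaks. Some long stretches that were sparse in peaks held no pair. From 17856145 to 32781085 on chromosome 12 there were 74 peaks over 14.9 Mb and no pair, and from 10077035 to 23726284 on chromosome 4 there were 64 peaks over 13.6 Mb and no pair. That is 4.96 and 4.69 peaks per Mb, beside 11.3 over all chromosomes.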

How the data were processed

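The authors deposited 1 peak list, the only file used, whose values are positions in base pairs (where a peak begins, counted from 0, and where it ends). Per the submitters' processing notes, Bowtie2 2.3.4.1, SAMtools, HOMER and bedtools were used, with no role or order stated. Peak calling, filters, Tn5 offset handling and the way replicates were joined are not stated. On the joining, the list carries only the word INTERSECT in its name. If the list is an intersection of the replicates, as this word implies, its edges may be narrower than in either replicate, which would lengthen gaps. A further peak called in only 1 replicate would be missing, which would turn a longer chain into a pair. A pair member called in only 1 replicate would be missing too, which would turn a pair into a single peak. None of these effects was tested, and others are possible.

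Peaks were chained, counted and plotted with Python 3.11.15, numpy 2.4.6, pandas 2.3.3, scipy 1.17.1 and matplotlib 3.10.9. For even placement, a window with n peaks had q = 1 - exp(-x) as the chance that a gap is chained, and 2q(1 - q)(1 - q) as the share of peaks in pairs, where x is 5000 bp times (n - 1), divided by the bp of the window not covered by peaks. Shares carry 95% exact (Clopper-Pearson) intervals, and medians carry intervals from binomial order statistics. Chaining was checked by a separate count on the peak list itself. Formula and width measures were tested on simulated lists with peak widths under 2 kb. The n - 1 in the formula was adopted after this test showed a bias with n. The members, measures and rules for named pairs (shortest gaps, largest summed widths, largest width ratios, greatest distance from other peaks, nearest to the limit, shared spacing) were chosen with earlier results of these data known. No gene or sequence was assigned, since the sources used here do not name the genome build of the list.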

Additional observations from a re-analysis of the deposited data

Results flagged for a closer look

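The rule for pairs left out the 717 peaks on unplaced scaffolds, and the same chaining there found 204 peaks in 102 pairs, on 86 of the 296 scaffolds with peaks. That was 28.5% of scaffold peaks (95% exact binomial interval 25.2 to 31.9), beside 19.7% on chromosomes (19.0 to 20.5). The median gap of scaffold pairs was 1531.5 bp (interval 1337 to 1955), the median member width was 527 bp (482 to 567), and 10 members (4.90%, interval 2.38 to 8.83) were 306 bp wide. Scaffold peaks were not used in any comparison of pairs with single peaks.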

How the results depend on the processing

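No paired analysis was possible because peaks are not separated by replicate in the deposited data, and leaving out a replicate was not possible for the same reason. Of 95 alternative values for 10 results, 79 stayed within the 95% interval of the reported value (for the number of pairs, within 1.5 times). They include the highest and lowest values with each chromosome left out in turn. Those keep most of the peaks and could hardly leave the interval, so the tally is a weak check. The share of peaks in pairs was 14.5% with gaps up to 2.5 kb, 23.9% up to 10 kb, 17.2% after merging peaks under 1 kb apart and 18.8% by midpoint distance, and the median gap was 1122, 3455, 2653.5 and 1786 bp in these settings. The ratio to even placement was 2.06, 1.22, 1.45 and 1.51 in the same order, 1.72 with peaks of at least 306 bp only, 1.67 for windows of 5 Mb and 1.99 over whole chromosomes. The value of 1.51 sets pairs chained by midpoint distance beside the unchanged 12.4% for edge-to-edge gaps, so its 2 parts are not alike. The share of pairs in the inner part minus that of single peaks was 1.89 percentage points as reported, 5.24 with gaps up to 2.5 kb and -0.19 up to 10 kb. The median width of pair members minus that of single peaks was 25 bp as reported and 10 bp with peaks of at least 306 bp only. In the other settings run it lay between 19.5 and 30.5 bp. The lower share of peaks under 306 bp and the higher share of peaks of at least 1 kb kept their direction in every setting run (the former has no value among peaks of at least 306 bp). Of the 1058 pairs, 640 were also chains of exactly 2 at 2.5 kb (82.5% of the 776 pairs there) and 835 at 10 kb (65.3% of 1279). Added after seeing the data were the result on peaks of at least 1 kb, the omission of windows with long chains, and the alternatives for the number of pairs and for the ratio, other than the placement windows of the ratio. Depth is unknown, so its effect was not tested.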

Other observations

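To see whether pairs recur with the same geometry, the gap and both widths of every pair were compared with those of every other, in either orientation. No 2 pairs had all 3 values equal. In 21 couples of pairs all 3 values lay within 10 bp, 20 of them on different chromosomes, and 16 of them included a width of 306 bp, the most frequent one. In 5 couples all widths exceeded 308 bp. One was on chromosome 6 from 32272619 to 32274934 (peaks of 1055 and 575 bp, gap 686 bp) and on chromosome 9 from 16910588 to 16912896 (1062 and 566 bp, gap 681 bp). Another was on chromosome 17 from 38039847 to 38041083 (385 and 505 bp, gap 347 bp) and on chromosome 18 from 1788832 to 1790061 (384 and 497 bp, gap 349 bp). A pair on chromosome 9 from 5767153 to 5769161 (519 and 577 bp, gap 913 bp) matched one on chromosome 7 from 27813353 to 27815350 (516 and 569 bp, gap 913 bp) and one on chromosome 15 from 40801820 to 40803845 (520 and 586 bp, gap 920 bp). The examples were chosen after their values were seen, whether the sequences are related was not tested, and no comparison with chance was made.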
